A study of Drosophila melanogaster with 16 samples.

Results

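The 10 genes described here are grouped as glial marker genes of the fly: repo, Gs2, moody, Eaat1, nrv2, Indy, loco, Tret1-1, Mdr65 and pnt. They were picked by their symbols, with earlier results of these data known, and their editing in larval brains was set beside their editing in S2 cells. All 10 had single-base variant positions in the bulk variant table, 7 of them (moody, Eaat1, nrv2, Indy, loco, Tret1-1 and pnt) were among the 5003 genes of the bulk frequency table, and 7 (those without Eaat1, with Mdr65) had an A-to-G position that passed the filters in single cells, out of 6380 genes. Fly glia wrap neurons, clear glutamate from synapses, feed neurons with sugars and form the blood-brain barrier. That barrier is sealed by septate junctions between glia of the brain surface and is kept tight by a G protein signalling pathway. Some of these genes also work outside glia, so a marker can be read in cells that are not glial.

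RNA editing was used to tag the RNAs that the RNA-binding protein FMR1 meets, by joining FMR1 to the editing domain of the enzyme ADAR (FMR1-ADARcd-V5). ADAR deaminates adenosine to inosine, and sequencing reports inosine as G, so an edited read carries G where the genome has A. The S2 cells, a line from fly embryos with properties of blood cells, were stably transfected with pMT-FMR1-ADARcd-V5. There was 1 uninduced sample, 3 replicates induced with 1 mM copper sulphate for 4 h and then kept in Schneider's medium for 4 h, and 3 replicates induced alike and then kept with 0.5 mM sodium arsenite for 4 h, a stress that makes stress granules form. The brains came from male and female larvae of the third instar that carried UAS-FMR1-ADARcd-V5, joined to EGFP through a self-cleaving peptide, and the pan-neuronal driver elav-GeneSwitch-Gal4, with 1 uninduced sample, 3 induced replicates in Schneider's and 3 induced replicates in 0.5 mM arsenite for 4 h. Induction was by bathing the larvae in the drug RU486, and each brain sample pooled dissociated cells of many larvae, neurons and glia together. The driver is active mainly in neurons, so an edited read of a glial marker in brains can come from a neuron, or from a glial cell in which the driver was active, and bulk RNA does not tell them apart. Single S2 cells were sorted into 2 plates, with 96 Schneider's wells and 96 arsenite wells on either plate. The study's text calls the brain samples biological triplicates and the S2 samples triplicate experiments, while the labels do not say how the cultures or dissections were split, so the p-values measure the spread between these samples.

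Depth was modest. The bulk samples held between 247155 and 458251 reads at all A-to-G positions, counted after molecular identifiers were collapsed. Over all genes the edited share of these reads was 0.58% in uninduced S2 cells, 9.58% to 9.74% in Schneider's and 18.2% to 18.5% in arsenite. In brains it was 0.73% in the uninduced sample, 3.76% to 4.75% in Schneider's and 7.09% to 10.6% in arsenite, so the brain replicates differed more from each other. The markers of neurons (16 of 17 with variant positions) summed to 591 to 708 RPM (reads per 1000000 reads at single-base variant positions) in S2 samples and 4110 to 4901 in brains. Those of blood cells (5 of 9) summed to 1240 to 1618 in S2 samples and 123 to 224 in brains, while none of the 10 muscle and fat body markers had a variant position. The 10 genes described here summed to 1592 to 1773 RPM in S2 samples and 651 to 758 in brains. Other glial genes (12 of 18) summed to 277 to 420 in S2 samples and 1613 to 2033 in brains. As a set, the 10 genes were thus read more in S2 cells, and the other glial genes more in brains.

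The reads at variant positions show which of the 10 marker RNAs each tissue held. The counts in this paragraph and the next 2 are reads at all single-base variant positions of a gene, whatever the change, above a call quality of 250. Ratios between tissues use the RPM, and since genes differ in the number of positions, they compare tissues and not genes. Repo, a homeodomain factor of nearly all lateral glia, had 14 to 29 reads in each of the 7 brain samples, and 0 in 6 of the 7 S2 samples with 1 read in the other. Eaat1, the transporter that takes up glutamate around synapses, had 57 to 121 reads in the brain samples with a median of 88 and none in any S2 sample. Counted against 3 reads over the 7 S2 samples together, Eaat1 was at least 260-fold higher in brains. For repo the ratio of the RPM was 180 (95% exact interval 31.8 to 7151, counting error only), an interval that rests on a single S2 read.

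Gs2, the glutamine synthetase that glia use to turn glutamate into glutamine, had 32 to 76 reads in brain samples and 1 to 5 in S2 samples, a ratio of 19.2 (12.6 to 30.7). Tret1-1, a trehalose transporter of the surface glia, had 47 to 93 reads in brains and 8 to 36 in S2 cells, and nrv2, a beta subunit of the sodium pump that is also part of septate junctions, had 82 to 156 against 20 to 57. For these 5 genes no brain sample was as low as the highest S2 sample. The share of all genes that separated in this way was not counted, and differences in coverage were common, as given below.

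The other 5 markers were not higher in brains. Pnt, an ETS transcription factor at the end of EGF and FGF receptor signalling, had 926 to 1024 reads in S2 samples and 43 to 166 in brains. Loco, a regulator of G protein signalling that helps to keep the barrier tight, had 396 to 516 against 93 to 165. Indy, a plasma membrane transporter of citrate and of dicarboxylates, had 244 to 308 against 21 to 42. Moody, a G protein-coupled receptor of the barrier glia, was low in both with 14 to 23 against 6 to 15 reads, and Mdr65, a drug efflux pump of the same glia, had at most 2 reads in any sample. In a bulk sample, fewer cells of a type and less RNA per cell cannot be told apart.

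**Figure D1:**
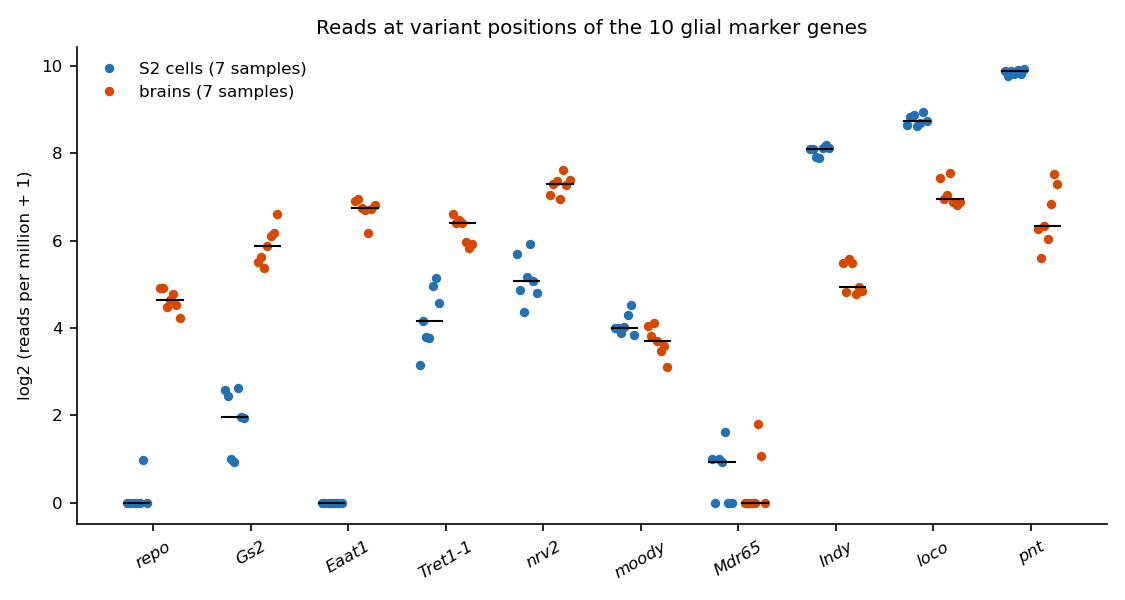
Reads at all single-base variant positions of each glial marker gene, as log2 of RPM plus 1. Each point is a sample (7 of S2 cells in blue, 7 of brains in orange), and the black lines are medians. Repo, Gs2, Eaat1, Tret1-1 and nrv2 sit higher in every brain sample than in any S2 sample, and Indy, loco and pnt sit lower. The share of all genes that separated in this way was not counted.

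These differences were tested with limma on log2 of RPM plus 1 over the 12 induced samples. With the A-to-G positions alone, 4 of the markers had enough reads, and all 4 differed. Nrv2 was higher in brains by 1.93 ± 0.18 (SE) on the log2 scale, an increase of 3.82-fold (adjusted p = 3.90e-08). Indy was 8.06-fold lower in brains (log2 difference -3.01 ± 0.16, adjusted p = 3.01e-11), pnt 4.17-fold lower (-2.06 ± 0.15, adjusted p = 1.34e-09) and loco 3.27-fold lower (-1.71 ± 0.10, adjusted p = 6.15e-11). A difference of this kind was the rule, since 37.7% of all 3383 genes tested were called higher and 43.2% lower in brains. With all single-base positions 8 of the markers could be tested and all 8 were called, against 38.1% of 5094 genes called higher and 45.4% lower. Repo, Gs2, Eaat1, nrv2 and Tret1-1 were higher in brains, and pnt, loco and Indy were lower. For pnt the fold depended on the positions: at all single-base positions it was 9.49-fold lower (-3.25 ± 0.12) in place of 4.17-fold.

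The A-to-G positions that passed the filters numbered 37 in bulk: 11 in loco, 9 in Indy, 9 in pnt, 3 in moody, 2 each in Eaat1 and nrv2 and 1 in Tret1-1. Repo, Gs2 and Mdr65 had none, so their editing was not measured in bulk. The positions above the quality limit in these 3 genes (4 in repo, 11 in Gs2 and 2 in Mdr65) were all A-to-C or T-to-G changes. By region, coding exons held 33 of the 37 positions, and the others were 3 in 5′ UTRs (2 of moody and 1 of pnt) and 1 in the 3′ UTR of loco, by the Ensembl annotation of BDGP6, the build of the authors' files. No position lay in an exon of another annotated gene. The 7 genes are Eaat1 (chromosome 2L, 9333567 to 9341925, plus strand), nrv2 (2L, 6789770 to 6798862, minus), Tret1-1 (2R, 11665768 to 11674782, plus), Indy (3L, 18828632 to 18846267, minus), loco (3R, 22619968 to 22639387, minus), pnt (3R, 23290231 to 23346167, minus) and moody (X, 2044292 to 2050120, minus). The 9 positions of Indy fell within 1948 bases. The 3 genes without an A-to-G position in bulk are repo (3R, 18236192 to 18239602, plus), Gs2 (X, 11422832 to 11430197, plus) and Mdr65 (3L, 6240500 to 6245746, minus).

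The variant table gives the base on either side of each edited adenosine, which is shown here for the positions that the results below turn on, because ADAR is known to prefer some neighbours over others. The triplets are in the direction of the transcript, written 5′ to 3′ in DNA letters, with the edited A in capitals.
Eaat1, 2L position 9340869, coding exon: tAc
Eaat1, 2L position 9338275, coding exon: tAg
nrv2, 2L position 6790870, coding exon: tAc
nrv2, 2L position 6791186, coding exon: cAg
loco, 3R position 22638132, coding exon: tAg
moody, X position 2046237, coding exon: tAc
pnt, 3R position 23291580, coding exon: tAc
pnt, 3R position 23292156, coding exon: cAg
Indy, 3L position 18829390, coding exon: tAg
Over the 37 positions, 43.2% had T before the edited A and 2.7% (1 position, in pnt) had G, against 36.2% and 4.93% of all 32876 A-to-G positions in bulk. G followed the edited A at 59.5% of them, against 50% of all positions. The commonest triplet was cAg with 10 positions, followed by tAc with 7. The neighbours of the edited adenosines in the marker genes were thus close to those in all genes, which is a description, and their difference was not tested.

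Before induction, the marker genes carried almost no edited reads. In the uninduced brain sample 0 of 183 reads at their A-to-G positions were edited, which allows a share of up to 1.64%. In the uninduced S2 sample 3 of 557 reads were edited (0.54%, 95% Clopper-Pearson interval 0.11% to 1.57%), 2 of 205 in loco and 1 of 6 in moody. For comparison, 20.7% of all genes with a read in uninduced S2 cells and 18.4% in uninduced brains had an edited read. The intervals here and below cover counting error only.

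In induced brains, edited reads were found in 6 of the 7 markers of the frequency table, all but Tret1-1, with 5 of them edited in Schneider's and 6 in arsenite. Of all genes with a read, 66.9% had an edited read in brains in Schneider's and 82.2% in arsenite. The average editing frequency of a gene averages the edited share of reads across its A-to-G positions, and it is given in percent. A gene without a read is listed at 0. Eaat1 stood at 4.76%, 10% and 10% in the 3 Schneider's replicates and at 12.5%, 35.0% and 31.8% in the 3 arsenite replicates, with 0 of 15 reads edited in the uninduced sample. Every arsenite replicate of Eaat1 was thus above every Schneider's replicate. The means were 8.25% ± 3.02 and 26.4% ± 12.2 (SD, 3 replicates each), on 8 to 30 reads per sample. Most of this came from 1 position, 9340869 of 2L, where the edited reads were 2 of 21, 3 of 15 and 1 of 5 in Schneider's and 3 of 12, 9 of 20 and 7 of 11 in arsenite. At that position the pooled share rose from 14.6% to 44.2%, and its lowest arsenite replicate (25%) lay above its highest Schneider's replicate (20%). At the other position of Eaat1 a single read of 12 was edited, in arsenite. The gene has no value in S2 cells, where it had no reads.

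Nrv2 had the most reads of the markers that were higher in brains, 24 to 57 per induced brain sample. Its frequencies were 7.73%, 7.14% and 15.4% in Schneider's and 12.3%, 10.8% and 3.57% in arsenite, so the groups overlapped, with means of 10.1% ± 4.60 and 8.88% ± 4.66. In Schneider's nrv2 lay above 93.1% of the 2259 genes that had at least 20 reads in each of those 3 samples, whose median was 3.15%. In arsenite it lay above 57.0% of 2362 genes, with a median of 7.81%. Tret1-1 had no edited read in brains: 0 of 22 Schneider's reads leave room for 13.6%, and 0 of 13 arsenite reads for 23.1%, so editing of the usual size was not detectable at this depth.

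Loco stood at 4.17%, 0% and 0% in the Schneider's replicates of brains and at 17.6%, 11.7% and 0% in the arsenite replicates, on 46 to 67 reads per sample. The 2 higher arsenite replicates lay above all Schneider's replicates, while replicate 3 had 0 edited of 46 reads. In arsenite replicates 1 and 2, position 22638132 of loco had 4 of 6 and 2 of 3 reads edited, and it weighs as much as any other position. Pnt stood at 4.76%, 0% and 0% and then at 9.52%, 2.08% and 3.89%, which overlap. Indy had 0 of 50 edited reads in Schneider's, which allows up to 6.00%, and in arsenite 2 of 8 reads in replicate 1 and none in the other 2. Moody had a single edited read in either condition (of 12 and of 5 reads), with no read in arsenite replicate 1, so its frequencies of up to 50% rest on single reads.

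**Figure D2:**
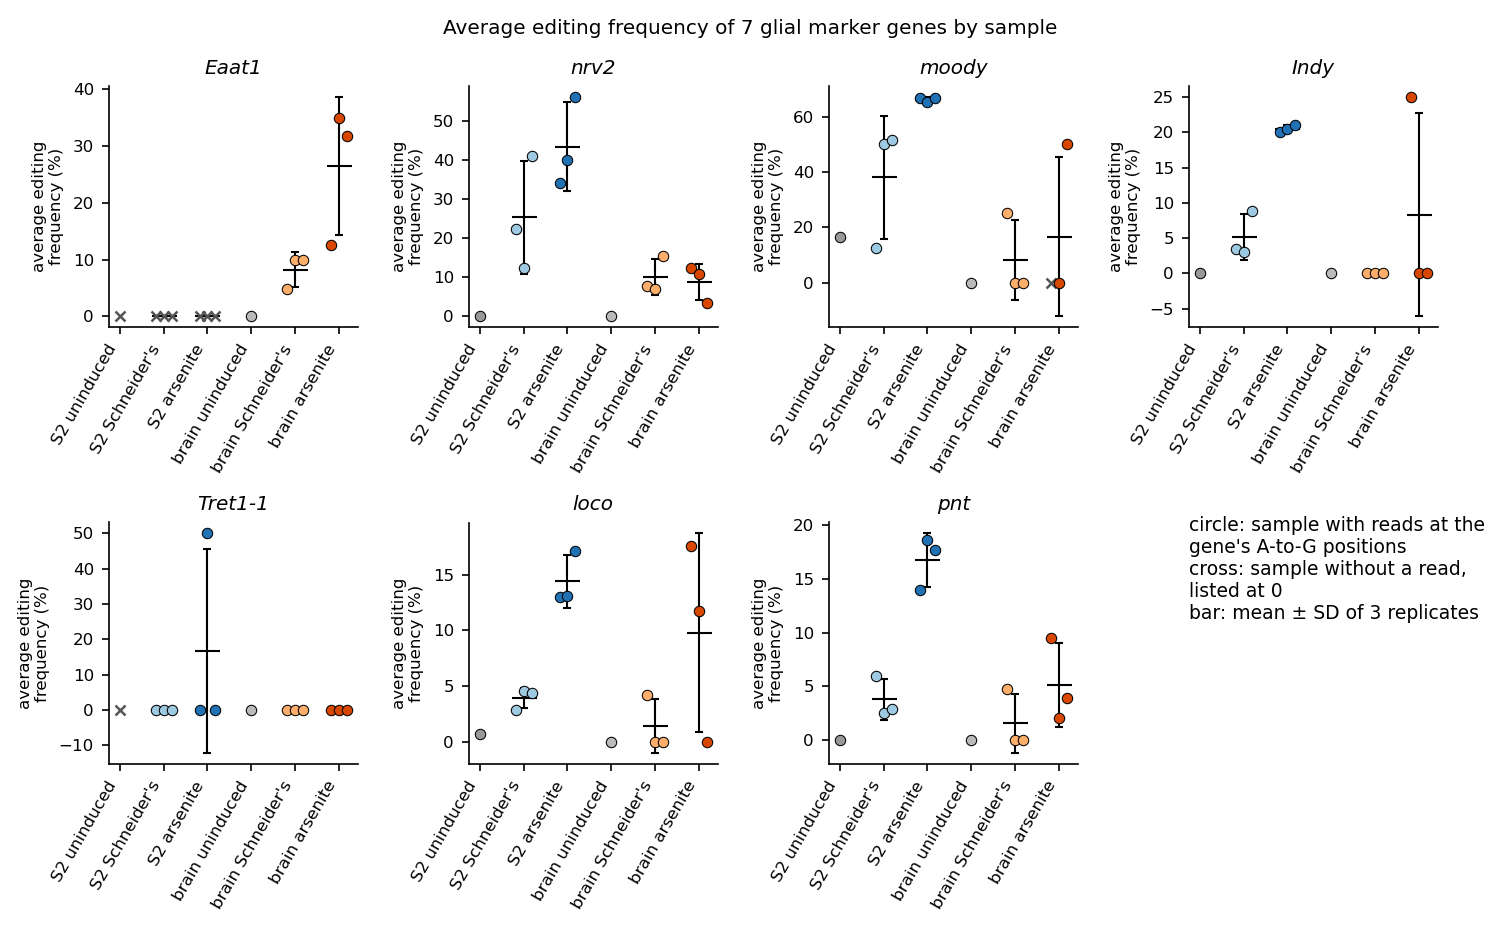
Average editing frequency (percent) of the 7 glial marker genes of the bulk frequency table, 1 panel per gene. Circles are samples with reads and crosses are samples without a read, listed at 0, and the bars give the mean ± SD of 3 replicates. Eaat1 is measured in brains alone, and Indy, loco, pnt and moody separate by condition in S2 cells, moody on 3 to 12 reads per sample.

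In S2 cells 5 of the 6 markers with reads had an edited read in Schneider's and all 6 in arsenite, against 85.4% and 94.6% of all genes with a read, and 4 of them separated by condition. Indy stood at 3.45%, 3.03% and 8.85% in Schneider's and at 20%, 20.5% and 21.0% in arsenite, on 123 to 165 reads per sample. Pnt stood at 5.94%, 2.56% and 2.88% and then at 13.9%, 18.6% and 17.6%, on 175 to 198 reads. Loco stood at 2.84%, 4.53% and 4.36% and then at 13.0%, 13.1% and 17.1%, on 203 to 263 reads. Its average weighs all positions alike, and position 22638132 stood at 50%, 25% and 100% in arsenite on 2, 4 and 2 reads. With reads pooled over positions and replicates, loco stood at 3.25% in Schneider's and 9.24% in arsenite. In all 3 genes no arsenite replicate was as low as any Schneider's replicate.

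The remaining markers were read too little in S2 cells to place them well. Nrv2 stood at 22.5%, 12.5% and 41.1% in Schneider's and 34.2%, 40.0% and 56.2% in arsenite, on 10 to 17 reads, and the groups overlapped. Moody stood at 12.5%, 50% and 51.4% in Schneider's and at 66.7%, 65.1% and 66.7% in arsenite, on 3 to 12 reads. These groups did not overlap, yet the uninduced sample of moody already read 16.7%, from 1 edited read of 6. Tret1-1 had edited reads in 1 S2 sample alone, 2 of 4 in arsenite replicate 2. Moody and nrv2 had the highest mean frequencies of the markers in S2 cells in both conditions, and in arsenite no neighbours in the order moody, nrv2, Indy and pnt overlapped, while pnt, Tret1-1 and loco did. In Schneider's the neighbours Indy, loco and pnt, with means of 5.11% ± 3.25, 3.91% ± 0.93 and 3.79% ± 1.87, overlapped, as did moody and nrv2. In brains almost all neighbours in the order of the means overlapped: in Schneider's each did, and in arsenite each did except pnt and Tret1-1, which had no edited read.

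Arsenite was compared with Schneider's by limma on the frequencies, with a call at an unadjusted p under the study's threshold of 0.01 and the adjusted p printed here. In S2 cells 3 of the 6 markers tested were called, all higher in arsenite, where 23.6% of all 4589 genes tested were called higher and 0.0872% lower. Indy rose by 15.4 ± 2.37 percentage points (SE, adjusted p = 0.0215). Pnt rose by 12.9 ± 2.31 points (adjusted p = 0.0231) and loco by 10.5 ± 2.13 points (adjusted p = 0.0278). With reads pooled over the gene, the difference for loco was 5.94 ± 1.58 points and no call (adjusted p = 0.0396), and with at least 5 reads at each position 6.69 ± 1.76 points. The 3 others did not pass: moody differed by 28.2 ± 11.2 points (adjusted p = 0.111), nrv2 by 18.1 ± 9.40 (adjusted p = 0.185) and Tret1-1 by 16.7 ± 14.5 (adjusted p = 0.391). The median difference of the 6 markers was 16.0 points, beside 10.7 points over all genes tested. It lies between the values of Indy and Tret1-1, and that of Tret1-1 rests on 2 edited reads of 4 in 1 sample. The median thus does not show a larger rise of the markers. When each sample was divided by its mean frequency over the genes tested, Indy, pnt and loco stayed higher in arsenite but none was called (adjusted p = 0.243 for Indy, adjusted p = 0.218 for pnt and adjusted p = 0.288 for loco), and nrv2 and moody turned lower without a call. Without Schneider's replicate 1, 2 or 3 loco lost its call (differences of 9.96, 10.8 and 10.7 points), pnt lost it without replicate 2 or 3 (12.3 and 12.5 points), and moody was called without replicate 1 (15.4 ± 2.37 points, adjusted p = 0.0733). Indy kept its call whichever of the 6 replicates was left out.

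In brains none of the 6 markers tested was called by limma at that threshold, nor was any at an adjusted p under 0.05, where 6.06% of 4192 genes were called higher in arsenite and 0.0954% lower. Eaat1 had the largest difference, 18.2 ± 6.39 points (adjusted p = 0.227), the only one of the 6 with an unadjusted p under 0.05. It was called when arsenite replicate 1 was left out (25.2 ± 2.48 points, adjusted p = 0.0503), the brain arsenite sample in which the share over all genes was highest (10.6%), and when all 12 induced samples set the spread (adjusted p = 0.128). Without arsenite replicate 2 it was 13.9 ± 6.52 points without a call (adjusted p = 0.328), and scaled to the sample mean it was no call either (adjusted p = 0.670). Loco differed by 8.38 ± 4.82 points (adjusted p = 0.370), and without arsenite replicate 3 by 13.3 ± 2.74 points with a call (adjusted p = 0.0911), while without arsenite replicate 1 it was 4.48 ± 4.19 points (adjusted p = 0.568). For pnt the difference was 3.58 ± 2.76 points (adjusted p = 0.487, with a range of 1.40 to 5.17 when each replicate was left out), for Indy 8.33 ± 7.31 (adjusted p = 0.491), for moody, with replicate 1 of arsenite listed at 0 without a read, 8.33 ± 16.1 (adjusted p = 0.728) and for nrv2 -1.21 ± 3.55 (adjusted p = 0.827). The median of the 6 was 8.33 points, beside 4.87 points over all genes tested. It is set by Indy and moody, with 2 edited reads in 1 arsenite replicate and with single edited reads. It thus does not show a larger rise of the markers. Eaat1 was also the only marker of the 6 whose conditions did not overlap in brains, with arsenite above, a pattern that 27.5% of all genes tested had. In S2 cells 4 markers had it (Indy, pnt, loco and moody), as did 51.4% of all genes tested.

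**Figure D3:**
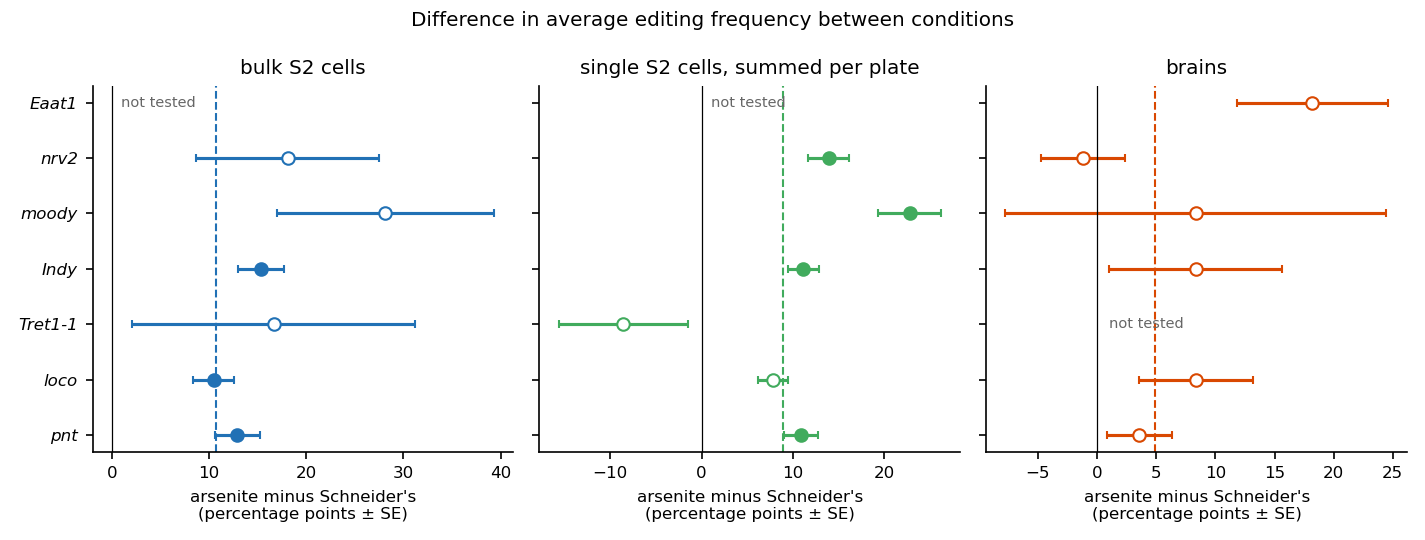
Difference in average editing frequency between arsenite and Schneider's (percentage points ± SE from limma) for each glial marker gene: S2 cells in bulk, single S2 cells summed per plate, and brains. Filled points passed p under 0.01, open points did not, and the dashed lines are the medians over all genes tested (10.7, 8.86 and 4.87 points).

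Brains were compared with S2 cells on genes whose reads reached 20 in all 12 induced samples, since a gene without reads is listed at 0. Among the markers only loco met this, with 46 reads or more, and pnt missed it by a single sample with 19. For loco the difference, brains minus S2 cells, was -2.52 ± 3.55 points in Schneider's (adjusted p = 0.562) and -4.64 ± 3.55 points in arsenite (adjusted p = 0.233), neither called by limma. Of all 1853 genes tested, 37.7% were called lower and 0.54% higher in brains in Schneider's, and 71.6% lower and 0.324% higher in arsenite, with medians of -6.70 and -12.1 points. The effect of arsenite on loco differed between the tissues by -2.12 ± 5.02 points (adjusted p = 0.800), where 13.9% of genes were called lower and 0.108% higher. For loco neither the difference between the tissues nor the difference in the effect of arsenite was larger than the spread between replicates. Its replicates in the 2 tissues overlapped in both conditions, while 68.2% of all genes tested had every brain replicate below every S2 replicate in Schneider's and 77.3% in arsenite. Its direction was also open to the processing: the arsenite difference and the difference in effect turned positive when reads were pooled over the gene, when positions needed 5 reads in every sample, when samples were scaled to their mean and without brain arsenite replicate 3 (0.24 and 2.76 points).

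Without the read minimum nrv2, pnt, Indy and Tret1-1 could be compared too, on few reads. In arsenite nrv2 was called lower in brains, with -34.6 ± 7.49 points (adjusted p = 0.00413 by limma), and so was pnt with -11.6 ± 2.48 points (adjusted p = 0.00395). Of all 4963 genes in this fit 42.5% were called lower in brains in arsenite and 3.36% higher. Indy differed by -12.2 ± 5.71 points (adjusted p = 0.0921) and Tret1-1 by -16.7 ± 10.9 (adjusted p = 0.210), without a call. None of these 4 was called in Schneider's in this fit, where nrv2 differed by -15.3 ± 7.49 points (adjusted p = 0.196), against 16.2% of all genes called lower and 1.47% higher. The effect of arsenite differed between tissues by -19.3 ± 10.6 points for nrv2 (adjusted p = 0.312) and by -9.35 ± 3.51 points for pnt (adjusted p = 0.161), neither called, where 8.83% of all genes were called lower and 0.826% higher. Eaat1 and moody are left out here, because a value of 0 stands for no reads in all S2 samples of Eaat1 and in brain arsenite replicate 1 of moody.

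Position by position, the rise in S2 cells was spread over most sites. Of the 35 positions with reads in both conditions, the pooled share was higher in arsenite at 31. These included all 9 of Indy, all 9 of pnt and 10 of the 11 of loco. The same count was not made over all A-to-G positions. Pooled over all genes, the edited share rose from 9.67% in Schneider's to 18.3% in arsenite. A position without an edited Schneider's or uninduced read could pass the filters through arsenite reads, which favours a rise. The average frequencies compared above use the same positions, for the markers and for all genes. In Indy, position 18829390 rose from 4 of 50 edited reads (8.0%) to 19 of 65 (29.2%), and position 18830684 from 0 of 51 to 10 of 50 (20%). In pnt, position 23291580 rose from 4 of 55 (7.27%) to 20 of 62 (32.3%), position 23292156 from 11 of 81 (13.6%) to 23 of 83 (27.7%), and the 5′ UTR position 23345602 from 0 of 66 to 12 of 69 (17.4%). In loco, position 22622730 rose from 3 of 74 (4.05%) to 14 of 65 (21.5%). These are pooled reads of 3 replicates, given as a description.

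In brains 19 of the 37 positions had an edited read in either condition, 7 in Schneider's and 19 in arsenite. Here too a position could pass the filters through arsenite reads, which favours the larger count in arsenite. Pooled over all genes, the edited share in brains was 4.27% in Schneider's and 8.52% in arsenite, and all A-to-G positions were not counted in this way. Most positions were read in both tissues, and 2 with high edited shares are described here. Others had more reads: position 22622684 of loco had 8 of 105 edited in arsenite S2 cells and 3 of 29 in arsenite brains. At position 6791186 of nrv2 these were 4 of 27 and 3 of 100. The tissues were not compared over all A-to-G positions in this way. At position 22638132 of loco, 6 of 10 reads were edited in arsenite brains (60%) and 4 of 8 in arsenite S2 cells (50%), against 1 of 7 and 1 of 5 in Schneider's, so the same adenosine had high shares in both tissues on few reads. At position 6790870 of nrv2, 10 of 14 reads were edited in arsenite S2 cells (71.4%) but 8 of 51 in arsenite brains (15.7%). The 3 S2 replicates stood at 60%, 80.0% and 75.0% there and the 3 brain replicates at 19.0%, 18.8% and 7.14%, which do not overlap. In Schneider's the same position read 5 of 14 (35.7%) in S2 cells and 6 of 29 (20.7%) in brains, and the replicates overlapped.

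**Figure D4:**
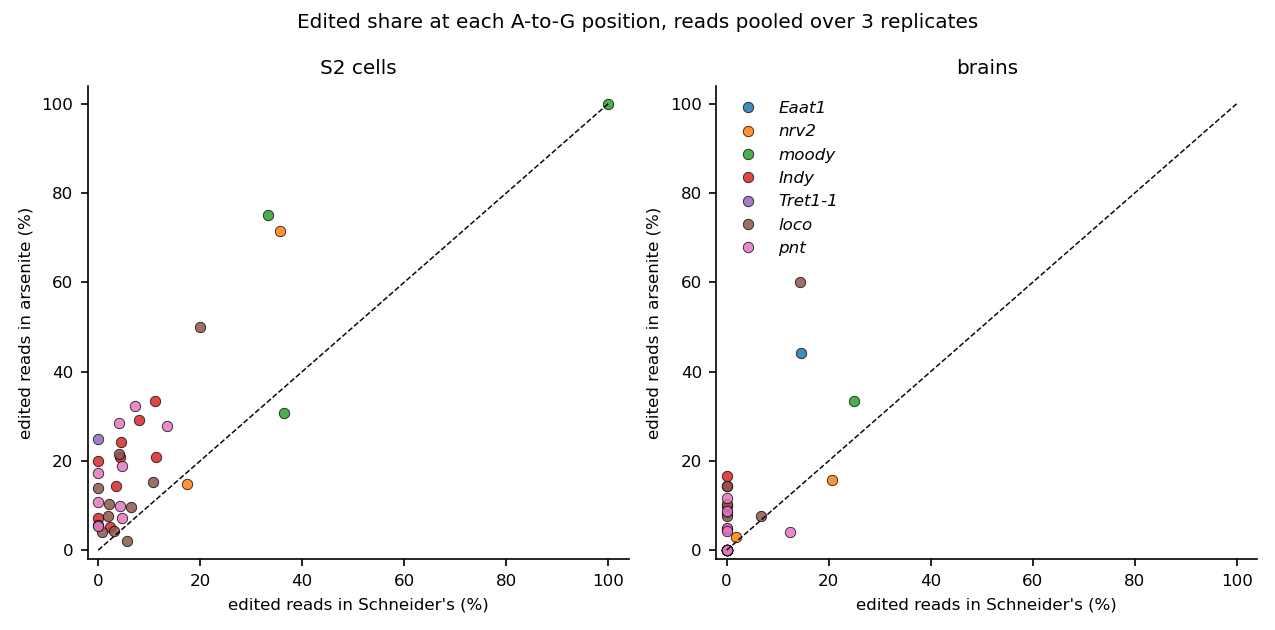
Edited share of the reads at each A-to-G position of the glial marker genes in Schneider's (horizontal, percent) and in arsenite (vertical, percent), in S2 cells (left) and brains (right), reads pooled over 3 replicates. Points above the dashed line had a larger share in arsenite: 31 of 35 positions in S2 cells, and 17 of 33 in brains, where many positions had no edited read in either condition. Positions could pass the filters through arsenite reads, which favours points above the line. The same count was not made over all A-to-G positions.

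Pooled over the 7 markers, the edited share in brains was 2.86% to 4.40% in the Schneider's replicates and 6.49% to 14.5% in the arsenite replicates. Over all genes the ranges were 3.76% to 4.75% and 7.09% to 10.6%. The 3 of the markers with more reads in brains (Eaat1, nrv2 and Tret1-1) were grouped after their coverage was seen. Together they stood at 5.26% to 13.9% in Schneider's and 11.7% to 17.5% in arsenite, with 0 of 61 reads edited in the uninduced sample. Every induced replicate lay above the range of all genes, but the choice of positions favours this. Eaat1 held 6 (Schneider's) and 20 (arsenite) of the 13 and 31 edited reads of this group. Eaat1 had no S2 read, so among these samples only brain reads could bring in its positions. The pool of all genes also holds positions edited in S2 cells, so this comparison cannot show stronger editing of the group. The 13 neuron markers of the frequency table stood at 7.36% to 9.33% in Schneider's and 9.60% to 14.7% in arsenite, with 1.29% in the uninduced brain sample, and 6 other glial genes at 3.90% to 5.75% and 5.80% to 11.1%. In S2 cells the marker genes stood at 3.21% to 6.53% in Schneider's and 15.0% to 16.0% in arsenite, below all genes with 9.58% to 9.74% and 18.2% to 18.5%. Among genes with at least 20 reads in each Schneider's replicate of S2 cells, pnt, loco and Indy lay above 19.4%, 19.8% and 26.5% of 2792 genes, whose median was 9.49%. In arsenite they lay above 35.4%, 26.2% and 51.9% of 2707 genes. These sums weigh genes by their reads and were not tested.

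Single S2 cells gave more positions, 116 in 7 of the markers: 38 in loco, 34 in pnt, 21 in moody, 14 in Indy, 6 in nrv2, 2 in Tret1-1 and 1 in Mdr65, with 29 of the 37 bulk positions found again. Repo, Gs2 and Eaat1 had no position that passed. Since cells are not replicates, reads were summed per plate and condition and averaged over positions as in bulk. Moody stood at 5.40% and 1.95% in Schneider's (plates 1 and 2) and at 23.1% and 29.8% in arsenite, on 138 to 206 reads. Indy stood at 1.04% and 1.36% and then at 13.0% and 11.7%, on 580 to 848 reads. Pnt stood at 2.97% and 1.66% and then at 14.2% and 12.2%, on 2373 to 3068 reads, loco at 1.70% and 2.15% and then at 9.38% and 10.1%, and nrv2 at 2.31% and 5.56% and then at 16.9% and 18.8%. In these 5 genes both arsenite plates were above both Schneider's plates. The share of all genes with this pattern was not counted, while the median difference over all genes tested was 8.86 points.

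By limma 4 of the 6 markers tested in single cells were called, all higher in arsenite, where 9.82% of 6021 genes were called higher and 0.0997% lower. Moody rose by 22.8 ± 3.43 points, nrv2 by 13.9 ± 2.20, Indy by 11.1 ± 1.70 and pnt by 10.9 ± 1.87, each with an adjusted p of 0.0978. Loco, with 7.82 ± 1.64 points, did not pass (adjusted p = 0.0978), nor did Tret1-1 with -8.57 ± 7.10 on 4 to 12 reads (adjusted p = 0.391). The median of the 6 was 11 points, beside 8.86 points over all genes tested. No marker passed an adjusted p of 0.05, and with the plate as a block none was called (adjusted p = 0.215 for each of these 5 genes). For pnt and Indy the edited reads were spread over many wells. In arsenite 57 of 90 and 56 of 93 wells with a read of pnt had an edited read, against 27 of 94 and 23 of 94 in Schneider's. For Indy these were 27 of 81 and 30 of 83 against 5 of 83 and 6 of 80. Nrv2 had edited reads in 7 of 32 and 2 of 30 wells in arsenite, against 2 of 27 and 2 of 21 in Schneider's. Its 11 edited arsenite reads of plate 2 thus came from 2 wells.

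The plates also held cells kept for 4 h in Krebs Ringer bicarbonate buffer after 4 h of induction, and cells with 2 h of induction and 2 h in Schneider's. In Krebs Ringer the edited share of all reads of pnt was 4.90% (95% exact interval 4.05% to 5.88%) and 7.0% (5.94% to 8.19%) on the 2 plates, between 2.51% and 1.64% in Schneider's and 11.3% and 10.5% in arsenite. Indy stood at 6.75% and 4.71%, between 0.83% and 1.55% in Schneider's and 12.5% and 11.2% in arsenite, and loco at 3.34% and 5.34%, between 1.87% and 2.13% and 8.48% and 8.52%. After the shorter induction pnt stood at 2.21% and 1.81% and loco at 2.35% and 2.57%. Nrv2 stood at 5.88% and 29.4% after it (3 of 51 and 10 of 34 reads). On plate 2 this was above its share in arsenite (22.0%, 11 of 50 reads). Over all genes the plates read 7.69% and 8.01% in Krebs Ringer, 5.28% and 4.66% in Schneider's and 12.4% and 11.5% in arsenite. Mdr65 had reads in 2 wells alone, with 6 edited of 9 reads in 1 well of the shorter induction. These populations were not tested against each other.

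**Figure D5:**
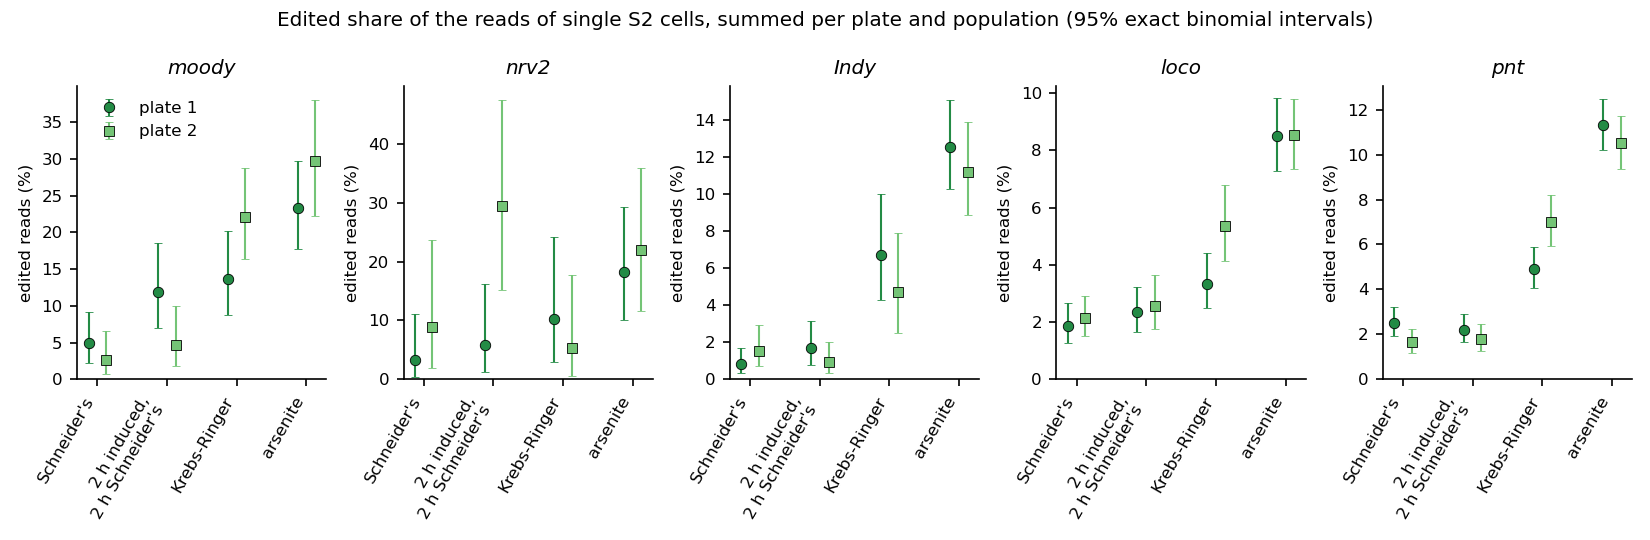
Edited share of the reads (percent) of 5 glial marker genes in single S2 cells, summed per plate (circles plate 1, squares plate 2) for 4 populations, with 95% exact binomial intervals that cover counting error only. Arsenite is highest on both plates for moody, Indy, loco and pnt, and Krebs Ringer lies between Schneider's and arsenite for these genes.

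The partners of the markers were set beside them. Of the G protein partners of moody and loco, all 7 were tested in S2 cells and 6 in brains. None was called between arsenite and Schneider's in S2 cells, brains or single cells, beside 23.6%, 6.06% and 9.82% of all genes called higher. Their median difference in S2 cells was 8.71 points, beside 10.7 points over all genes tested. In arsenite all 5 that could be compared were called lower in brains than in S2 cells, beside 71.6% of all genes, with pins, which binds G alpha subunits, at 8.45% ± 3.80 in brains and 24.1% ± 3.89 in S2 cells (SD). Of the septate junction partners of nrv2, 6 of 10 tested in S2 cells were called higher in arsenite, beside 23.6% of all genes, with Cont, an adhesion protein of the junction, rising from 4.14% ± 3.99 to 25.5% ± 5.18, and kune, a claudin, from 2.02% ± 1.83 to 21.6% ± 3.66. In brains 1 of 8 was called (pck, another claudin), beside 6.06% of all genes. The effect of arsenite was called smaller in brains for 3 of 6, beside 13.9% of all genes (kune, Nrx-IV and Atpalpha, the sodium pump subunit that nrv2 binds), with kune at -16.1 ± 3.07 points (adjusted p = 0.0192 by limma). Of the EGF and FGF receptor pathway partners of pnt, 5 of 8 were called higher in arsenite in S2 cells, beside 23.6% of all genes, among them edl, a regulator that binds ETS proteins, with 4.41% ± 0.74 and 26.0% ± 2.33, and none of 8 in brains, beside 6.06%. Of 18 other glial genes, 6 were in the frequency table, 1 of 5 tested in S2 cells was called, beside 23.6% (Gs1, the mitochondrial glutamine synthetase, 1.01% ± 1.75 to 17.6% ± 3.30), and none of 5 in brains, beside 6.06%.

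Markers of the other cells of the brain moved as follows. None of 13 neuron markers was called between arsenite and Schneider's in brains, with a median difference of 0.82 points, while 2 of 8 neuroblast markers were (grh and mira, the latter from 2.69% ± 0.99 to 9.91% ± 0.73), beside 6.06% of all genes called higher. Of the blood cell markers, 2 of 4 tested were called higher in arsenite in S2 cells (Pvr and srp), beside 23.6% of all genes, and the 1 tested in brains was not called. The part of these cells in the values of the glial markers was not tested.

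The genes whose frequency followed that of a marker most closely over the 12 induced samples were picked among those with at least 20 reads in each. For Indy they were CG5004 and Vps4, with Pearson coefficients of 0.98 and 0.96. For pnt they were Tapdelta and NSD, with 0.97 each, and for loco CG13096 and Ras85D, with 0.95 and 0.93. The coefficients are a description, since the 12 samples fall into 4 groups that share condition and tissue, and 1852 or 1853 genes were searched for each.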

How the data were processed

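VASA-seq libraries of 14 bulk samples and 2 plates of 384 wells were used. Per the paper's methods, the authors trimmed reads with cutadapt 3.2, removed ribosomal RNA with BWA 0.7.17-r1188, mapped the rest to BDGP6 with STARsolo 2.7.7a, keeping unique alignments, collapsed reads with UMI-tools 1.1.1 and called exonic variants with GATK 4.1.9.0 on merged libraries. Positions were kept above 250 in call quality and under 0.95 in allele frequency. The authors deposited the average editing frequency per gene as a fraction from 0 to 1, without further normalization, shown here in percent, and the reads per base at each variant position. The frequencies recomputed from these reads equalled the deposited fraction within 1e-06 for all 5003 bulk genes. The deposited tables of the authors' own comparisons hold fold changes, t and p and were not used. The variant tables name 20 libraries that no label maps to a sample. Their reads entered the allele frequency by which positions were filtered, and were left out of all counts and frequencies given here.

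Samples were grouped by their labels and wells by the plate labels. For single cells, wells were summed per plate and condition. The authors deposited a single-cell table of 355 cells, while the sums used all wells. The untransformed frequencies were fitted per gene in R 4.3.3 by lmFit and eBayes of limma 3.58.1, with two-sided tests and no covariate. A gene was tested within a tissue where it was above 0 in at least 1 sample, and between tissues where it had at least 20 reads in each of the 12 induced samples. A call is p under 0.01, as in the study. Adjusted p are by Benjamini-Hochberg over all genes tested. Coverage was tested on log2 of RPM (reads per 1000000 reads at the positions used) plus 1, with a trend and condition as covariate, on genes with at least 20 reads in at least 3 samples, and called at an adjusted p under 0.05. Intervals are 95% Clopper-Pearson, and 0 edited reads carry a limit of 3 reads. Positions were placed with the Ensembl 115 annotation. The tests were checked on simulated reads. Tables and figures were made in Python 3.11.15 (pandas 2.3.3, numpy 2.4.6, matplotlib 3.10.9, scipy 1.17.1).

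The members and lists were chosen with earlier results of these data known. Named are all members, of each other list called genes with at least 3 positions (at most 3 per comparison by size of the difference), and for the 3 members with most reads the 2 genes of highest Pearson correlation. Pck was named as a count of 1, after its values were seen. The alternatives were pooled reads, an arcsine scale, an adjusted p, stricter quality, a minimum of 5 reads per position, scaling to the sample mean, other sets of genes and samples, a quasi-binomial model, other coverage positions, filters and scaling, each replicate left out, and a replicate block. Plates are shared units, so their block is given beside the single-cell result. Bulk replicate numbers did not pair the samples.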

Additional observations from a re-analysis of the deposited data

How the results depend on the processing

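Of 331 recomputed values of single glial markers, 285 kept their direction and side of the threshold, 26 lost a call, 4 gained one and 16 changed sign. The cause of these changes was not tested, except where fewer samples or another call threshold are the change itself. When each sample was divided by its mean frequency, calls fell from 1087 to 313 in S2 cells, from 258 to 140 in brains, from 709 to 277 (Schneider's) and 1332 to 131 (arsenite) between tissues, and from 259 to 69 for the difference in effect, and the called glial markers in S2 cells from 3 to 0. On that scale moody (-0.45) and nrv2 (-0.31) turned lower in S2 cells, and loco turned higher in brains (0.0025 in Schneider's, 0.38 in arsenite, 0.37 for the difference in effect), all in units of the sample mean. With 5 reads at each position nrv2 in S2 cells turned to -0.46 points, loco to 3.53 points between tissues in arsenite and 4.45 for the difference in effect, and the Schneider's tissue calls fell to 383. With pooled reads loco turned to 0.65 and 2.95 points. On the arcsine scale its difference in effect turned to 0.0016, with 68 calls over all genes.

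At an adjusted p under 0.05, 1 gene was called in brains and 5 in single cells, with 0 glial markers. At a call quality above 1000, single cells gave 319 calls against 597, with 1 glial marker against 4. A quasi-binomial model gave 680 calls in S2 cells and 108 in brains. With all 12 induced samples in 1 fit, 1 glial marker was called in S2 cells (pnt) and 1 in brains (Eaat1). Without a read minimum, the arsenite tissue calls were 2274, with 4 glial markers (Eaat1 and moody among them, whose values of 0 include samples without a read), and the differences in effect 479. With all single-base positions, coverage calls rose from 2738 to 4254, and those of glial markers from 4 to 8.

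Leaving out 1 replicate at a time gave 531 to 990 calls in S2 cells, 95 to 396 in brains, 478 to 739 and 1137 to 1350 between tissues in Schneider's and arsenite, 190 to 348 for the difference in effect and 2641 to 2696 for coverage. Called glial markers ranged from 1 to 3 in S2 cells and from 0 to 1 in brains. Nrv2 in brains ranged from -2.92 to 1.45 points (1.44 without Schneider's replicate 3), moody in brains from -8.33 to 16.7, and loco from -8.54 to 0.24 between tissues in arsenite and from -6.02 to 2.76 for the difference in effect.

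With a replicate block, calls fell to 502 in S2 cells (1 glial marker, Indy) and 105 in brains. The bulk samples share only a number: the correlations of same-numbered deviations lay between -0.038 and 0.0035 in S2 cells and between -0.0040 and 0.023 in brains. With the plate as the block, single-cell calls fell from 597 to 83 and those of glial markers from 4 to 0. Depth limits what can be seen at A-to-G positions: moody and Tret1-1 had at most 14 reads there in any bulk sample, Eaat1 none in S2 cells, and repo, Gs2 and Mdr65 had no such position in bulk.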
